A study of Arabidopsis thaliana with 14 samples.

Results

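The response of wild-type Arabidopsis thaliana (Col-0) seedlings to low water potential was measured on 8 single-colour Agilent arrays, out of 14 in the series, chosen by their titles: 4 of the wild type in control and 4 of the wild type under stress. Seedlings were grown for 7 days on agar with half-strength Murashige-Skoog medium under continuous light, then transferred either to new plates of the same medium or to plates soaked with polyethylene glycol, which held the water potential at -1.2 MPa, and harvested whole after 10 h. Neither wild-type group carries a transgene. The other 6 arrays, 3 in each treatment, come from seedlings that express AFL1 fused to YFP from the 35S promoter in the same background. They served to estimate the spread, and they also counted in the filter on dim probes and in the choice of each gene's probe. The labels do not say that replicates came from separate cultures, so the p-values measure how far these samples scatter, and that scatter may be technical.

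Polyethylene glycol of this size stays outside the cell wall and withdraws water, as drying soil does. Plants respond by building up solutes and abscisic acid, by slowing growth within hours, and by turning over existing protein, lipid and cell wall material. A whole seedling holds many cell types, and in total RNA fewer cells of a type cannot be told apart from less RNA per cell. The text below follows the transcripts by process, first those of breakdown and respiration, then of walls and growth, then of the plastid, the ribosome and nutrient supply, and last of signalling and chromatin.

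Levels are log2 of the processed signal over the array's own 75th percentile, so that 0 is the level of that percentile, and they are listed in the order of replicates 1 to 4. Differences are log2 fold changes of low water potential over control, with their standard error (SE) and n = 4 arrays a group. A gene was called higher or lower at an adjusted p under 0.05 over 18307 genes in limma. A gene that no array of a group showed well above background can be given there only as a limit, written "at least N-fold": the mean of the brighter group over, per array of the dimmer group, the higher of the weakest signal well above background and the gene's own. The 75th percentile lay between 796.2 and 1591, from 61.37% to 67.11% of probes lay well above background, and saturation marked 0 spots. Some genes named below were well above background on only part of a group. In the control these were TSPO, MYB46 and GORK on 1 array, LTP4, GPAT5, IRX9 and GSTU4 on 2, and SAG29, LEA7, VND7, CIPK25, MAPKKK19 and ACS7 on 3. At low water potential they were PCC1, CIPK20, HTR12 and ACO1 on 1 array, ANT and CHR1 on 2, and CYP83A1, RTFL16 and WRKY53 on 3, so the folds of these genes rest partly on signal near background. Replicate 1 stood somewhat apart in both groups: control replicate 1 correlated with its group at 0.9596 to 0.9635 and stress replicate 1 at 0.9365 to 0.9587, where the other arrays reached 0.9806 or more with another of their group. Both shared slides with the 35S:YFP-AFL1 arrays and were scanned on the second scan day, as were stress replicates 3 and 4. Control replicates 2, 3 and 4 and stress replicate 2 were scanned on the first. Values given below within the second scan day thus rest on control replicate 1 as the only control. Those within the first rest on stress replicate 2 as the only stress array.

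Most of the measured transcriptome differed between the treatments. Of 18307 genes tested, 11737 (64.1%) were called, 5627 higher (30.7%) and 6110 lower (33.4%), and the 2 groups of arrays did not overlap for 9759 genes (53.3%). Calls of at least 2-fold numbered 6149 (33.6%), with 2630 higher (14.4%) and 3519 lower (19.2%). At 16-fold or more the balance was the other way, with 252 genes higher and 212 lower. These counts use fitted values, also for genes not well above background in a treatment, so they rest partly on signal near background. For 2392 genes (13.1%) the 95% interval of the log2 fold change lay wholly within 0.5 of no change. The median over all genes was -0.03. Scaling each array to its median in place of its 75th percentile moved every gene up by 0.16 and turned the split to 6786 higher and 5135 lower, so that differences of that size have no settled sign. Without replicate 1 of both groups, an alternative added after the data were seen, 5669 genes were higher and 6429 lower. A further 3347 measured probes match no gene in the table used for names and were tested apart, with 858 called higher and 994 lower.

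**Figure D1:**
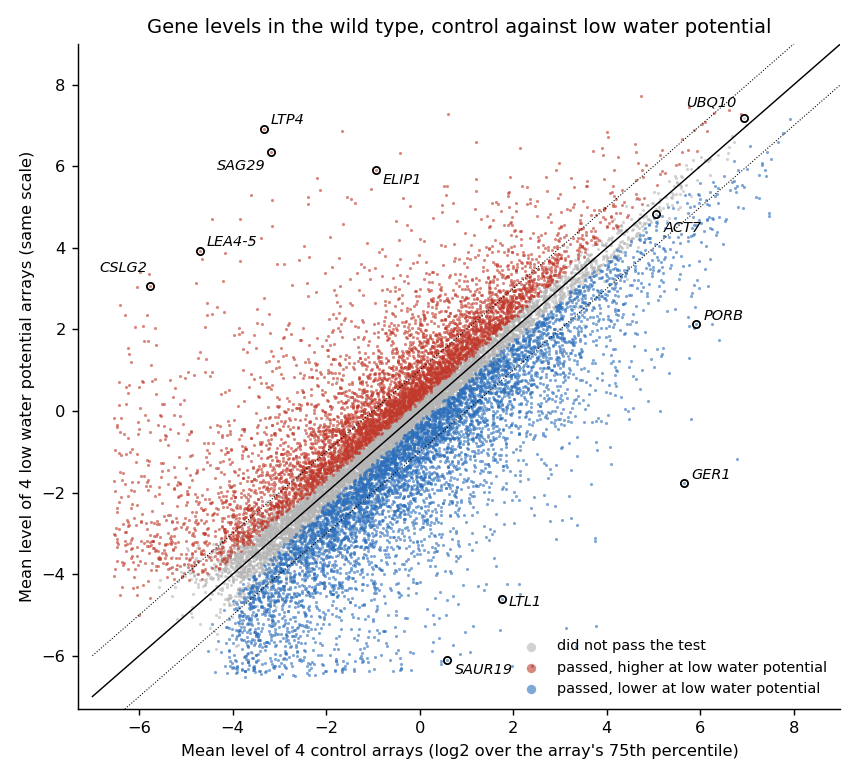
Mean level of each of 18307 genes on 4 control arrays (horizontal axis) and 4 low water potential arrays (vertical axis), both log2 over the array's 75th percentile. Red points passed the test as higher, blue as lower and grey did not pass, the solid line marks equal levels and the dotted lines a 2-fold difference. Points spread along both axes near -6, where levels are not well above background.

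The 10 genes with a symbol that rose furthest included LTP4 and LTP3, which encode lipid transfer proteins of the cell surface. LTP4 stood at -5.98, -0.4, -2.38 and -4.58 in the control and 6.66, 7.16, 7.33 and 6.49 at low water potential, with 2 of the control arrays not well above background. LTP3 stood at -2.36, -0.55, -1.75 and -1.96 in the control and 7.09, 7.06, 7.1 and 6.19 at low water potential, and the arrays of the 2 treatments were far apart. SAG29, a sugar transporter of the SWEET family that is known from senescing leaves, rose by 9.53 ± 0.41 (SE, adjusted p = 4.21e-10). TSPO, a membrane protein of the secretory pathway that binds tetrapyrroles, rose by 9.15 ± 0.4 (SE, adjusted p = 5.26e-10), and LEA7, a late embryogenesis abundant protein, by 8.89 ± 0.35.

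A set of 225 genes was switched on, meaning not well above background on any control array, well above it on all 4 stress arrays and called, and 350 genes were switched off by the same rule. LEA4-5, another late embryogenesis abundant protein, was at least 299-fold higher (adjusted p = 4.18e-12) and ATHSP22.0, a small heat shock protein of the endomembrane system, at least 202-fold (adjusted p = 4.02e-11). CSLG2, of the cellulose synthase-like family, was at least 163-fold higher (adjusted p = 1.74e-09), GASA3, of the gibberellin-regulated peptides, at least 162-fold (adjusted p = 7.59e-11), and HAI2, a protein phosphatase 2C of abscisic acid signalling, at least 101-fold (adjusted p = 9.4e-12). Just outside the 5 named by rule lay ChlAKR, a plastid aldo-keto reductase that detoxifies reactive carbonyls, at least 83.6-fold higher (adjusted p = 5.83e-11). SWEET4, a sugar transporter, was at least 56.9-fold higher (adjusted p = 7.57e-12), and these 2 were chosen after their values were seen.

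Among the 10 genes with a symbol that fell furthest, GER1, a germin-like protein of the cell wall, went from 5.63, 5.7, 5.57 and 5.75 in the control to -2.44, -1.43, -2.03 and -1.11 at low water potential, a log2 fold change of -7.42 ± 0.24 (SE, adjusted p = 3.49e-11) with no overlap of the arrays. PCC1, named for its control by pathogens and the circadian clock, fell by 7.09 ± 0.75 and was well above background on 1 of the 4 stress arrays. CYP83A1 and BCAT4, which act in the synthesis of methionine-derived glucosinolates, fell by 6.95 ± 0.51 and 6.87 ± 0.26. Among the genes switched off, LTL1, a secreted lipase of the GDSL type, was at least 61-fold lower (adjusted p = 1.58e-12). AK3, an aspartate kinase at the head of lysine, threonine and methionine synthesis, was at least 38.8-fold lower (adjusted p = 6.25e-08). PnsL3, a subunit of the chloroplast NDH complex, was at least 28.2-fold lower (adjusted p = 6.22e-11), the auxin-induced SAUR19 at least 27.7-fold (adjusted p = 5.22e-09) and the glutathione transferase GSTF11 at least 25.4-fold (adjusted p = 1.61e-11). RL4, a small MYB-like factor, was at least 25.1-fold lower (adjusted p = 1.89e-10) and SAUR63 at least 22.2-fold (adjusted p = 2.44e-09).

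Autophagy encloses cytoplasm in a double membrane and delivers it to the vacuole. ATG8 proteins are the ubiquitin-like tags on that membrane, and ATG7, ATG3 and ATG5 belong to the machinery that attaches them. Of 35 autophagy genes tested 28 rose and 0 fell, with a median log2 fold change of 0.71, where 30.7% of all genes rose and 33.4% fell. ATG8H stood at -2.19, -1.76, -1.94 and -2.05 in the control and 1.46, 1.57, 1.5 and 1.44 at low water potential, a rise of 3.48 ± 0.1 (SE, adjusted p = 1.74e-11). The 4 arrays of each treatment lay within 0.5 of each other and the gap between treatments was several times that. The lipid-binding ATG18H rose by 1.87 ± 0.14, APG8A, which is ATG8A, by 1.65 ± 0.12 and ATG8G by 1.46 ± 0.19. APG7, the activating enzyme, rose by 1.39 ± 0.14, ATG3, the conjugating enzyme, by 0.86 ± 0.11 and APG5 by 0.92 ± 0.22. NBR1, a receptor that brings ubiquitinated cargo to the membrane, rose by 0.93 ± 0.11. ATG8E did not follow: it stood at 2.12, 2.7, 2.86 and 2.09 in the control and 0.8, 2.28, 2.35 and 2.09 at low water potential, a difference of -0.56 (95% interval -1.21 to 0.08, adjusted p = 0.114), with stress replicate 1 well below the rest.

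The 26S proteasome degrades ubiquitinated proteins in a 20S core capped by a 19S particle, whose base is a ring of RPT ATPases. Of 29 subunit genes 25 rose and 0 fell, with a median of 0.81, and the spread of the members was narrow. RPT2a stood at 1.85, 1.98, 1.62 and 1.88 in the control and 3.55, 3.15, 3.06 and 3.26 at low water potential, a rise of 1.42 ± 0.12 (SE, adjusted p = 2.43e-07). The other base ATPases RPT1A and RPT3 rose by 1.32 ± 0.15 and 1.24 ± 0.1. The highest member was AT5G23540, at 1.43 ± 0.1 (SE, adjusted p = 3.02e-08). In the core, the alpha subunit PAA1 rose by 1.1 ± 0.12 and the beta subunit PBG1 by 1.05 ± 0.11. No proteasome gene rose as far as 3-fold, and 7 passed 2-fold.

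UBC32, which works in the removal of misfolded proteins from the endoplasmic reticulum, went from 1.84, 1.93, 1.92 and 1.96 in the control to 5.05, 5.0, 4.92 and 5.03 at low water potential, a rise of 3.09 ± 0.09 (SE, adjusted p = 9.17e-12). Genes that share the letters of their symbols were grouped as well, a grouping made after earlier results were known. Of 30 VPS genes, which sort proteins to the vacuole, 19 rose and 3 fell, with a median of 0.52. VPS34, the phosphatidylinositol 3-kinase needed for autophagosomes and endosomes, rose by 1.13 ± 0.12, and its partner VPS15 by 1.28 ± 0.13. UBC32, VPS34 and VPS15 lie outside the naming rule and were chosen after their values were seen.

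Fatty acids are broken down in the peroxisome, where acyl-CoA oxidases (ACX), multifunctional proteins and thiolases shorten the chain and a peroxisomal citrate synthase takes up the acetyl units. Of 20 genes of this process, the glyoxylate cycle and oil synthesis, 13 rose and 2 fell, with a median of 0.75. ACX1 stood at 2.3, 2.33, 2.24 and 2.33 in the control and 5.15, 4.98, 5.12 and 5.08 at low water potential, a rise of 2.78 ± 0.09 (SE, adjusted p = 2.98e-11) with almost no spread among replicates. The peroxisomal citrate synthase CSY3 rose furthest, by 3.5 ± 0.16 (SE, adjusted p = 7.97e-10). ACX2 rose by 2.0 ± 0.19, the multifunctional protein MFP2 by 1.8 ± 0.1 and the acyl-CoA synthetase LACS7 by 1.77 ± 0.11. Steps before and after these gave other values. SDP1, the oil body lipase, differed by 0.37 (95% interval -0.01 to 0.76, adjusted p = 0.0844), but passed the test in 7 of the alternative settings. Isocitrate lyase (ICL), the entry to the glyoxylate cycle, stood at 2.24, 1.21, 1.62 and 0.88 in the control and 3.29, 2.1, 1.64 and 1.42 at low water potential, and its replicates overlapped across treatments. PMDH2, a peroxisomal malate dehydrogenase, fell by 1.5 ± 0.17 (SE, adjusted p = 5e-06).

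Plant mitochondria can bypass the proton-pumping complexes through alternative oxidases (AOX) and external NAD(P)H dehydrogenases (NDB). Of 16 genes of these bypasses and of the mitochondrial signalling to the nucleus, 10 rose and 1 fell, with a median of 0.8, or 0.65 with dim genes at their bound. NDB2 stood at -0.06, 0.62, 0.06 and -0.11 in the control and 4.04, 3.49, 3.64 and 3.44 at low water potential, a rise of 3.53 ± 0.17 (SE, adjusted p = 1.27e-09). AOX1A, the main stress-responsive oxidase, rose by 2.11 ± 0.11 (SE, adjusted p = 3.1e-09). AOX1D was switched on, at least 4.2-fold higher (adjusted p = 9.67e-10), while AOX2 and NDB3 were well above background on 3 and 2 of the 4 stress arrays and on no control array. NAC13, a transcription factor of the mitochondrial response, rose by 1.78 ± 0.26. NDB1, an external dehydrogenase for NADPH, fell by 1.4 ± 0.15 (SE, adjusted p = 2.87e-06), opposite to NDB2. Of 10 genes with SDH symbols, the subunits of succinate dehydrogenase, 9 rose and 0 fell, with a median of 1.25. The flavoprotein subunit SDH1-1 stood at 0.31, -0.06, -0.06 and 0.22 in the control and 3.77, 3.0, 2.85 and 3.38 at low water potential, a rise of 3.15 ± 0.18 (SE, adjusted p = 7.49e-09), and the iron-sulfur subunit SDH2-1 rose by 2.4 ± 0.12, both chosen after their values were seen.

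Suberin is a polymer of long-chain fatty acids, glycerol and ferulate laid down in the endodermis and periderm of roots. Of 17 suberin genes 13 rose and 0 fell, with a median of 1.83, or 1.46 with dim genes at their bound. The elongase KCS2 stood at -1.11, -1.92, -2.11 and -2.36 in the control and 3.91, 3.71, 3.08 and 3.46 at low water potential, a rise of 5.42 ± 0.31 (SE, adjusted p = 5.88e-09). The acyltransferase GPAT5 rose by 3.54 ± 0.32 and was well above background on 2 of the 4 control arrays. RWP1, which attaches ferulate, rose by 3.17 ± 0.2, the fatty acid hydroxylase CYP86B1 by 2.34 ± 0.3, FACT, which joins caffeate to fatty alcohols, by 2.21 ± 0.28, and the transporter ABCG6 by 2.97 ± 0.26. The regulator MYB41 was switched on, at least 5.67-fold higher (adjusted p = 7.27e-08), and so was MYB9, at least 2.19-fold (adjusted p = 0.000218).

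Phenylpropanoid synthesis runs from phenylalanine through PAL and C4H to the lignin alcohols, which laccases polymerise in the wall. Of 18 such genes 15 rose and 0 fell, with a median of 1.26. The alcohol dehydrogenase CAD5 stood at 0.07, -0.29, -1.06 and -0.95 in the control and 3.44, 3.15, 3.18 and 3.28 at low water potential, a rise of 3.82 ± 0.23 (SE, adjusted p = 1.2e-08). At the head of the pathway PAL4 rose by 3.34 ± 0.14 and C4H by 1.66 ± 0.15, whereas PAL2, another copy of the first enzyme, differed by -0.24 (95% interval -0.48 to 0, adjusted p = 0.0785) and was called lower in 4 of the alternative settings. The reductase CCR2 rose by 2.25 ± 0.18, and the laccases IRX12 and LAC17 by 1.71 ± 0.16 and 1.58 ± 0.23. FAH1, which directs the pathway to syringyl lignin, differed by -0.52 (95% interval -1.07 to 0.04, adjusted p = 0.0925). FAH1 was called lower in 3 alternative settings, at -0.81 (adjusted p = 0.00193) without control replicate 4 and at -1.19 (adjusted p = 0.019) within the second scan day among them.

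Xylem vessels carry thick secondary walls of cellulose, xylan and lignin. Of 10 genes with IRX symbols, named for collapsed xylem in mutants, 8 rose and 1 fell, with a median of 1.85. IRX3, a cellulose synthase of the secondary wall, stood at -1.8, -1.78, -2.27 and -1.68 in the control and 0.83, 0.92, 0.42 and 0.52 at low water potential, a rise of 2.55 ± 0.15 (SE, adjusted p = 7.31e-09). The other cellulose synthases of the secondary wall, IRX1 and CESA4, rose by 2.31 ± 0.16 and 2.12 ± 0.16. IRX6, a COBRA-like protein of the same walls, rose by 2.4 ± 0.12, and IRX9, of xylan synthesis, by 2.17 ± 0.2. MYB46 and MYB83 are the paired regulators of the secondary wall. MYB46 stood at -4.55, -3.99, -4.55 and -4.34 in the control and -1.73, -1.2, -1.15 and -1.52 at low water potential, a rise of 2.96 ± 0.16 (SE, adjusted p = 4.63e-09), and MYB83 was switched on, at least 2.63-fold higher (adjusted p = 6.2e-06). IRX6, IRX9, MYB46 and MYB83 were chosen after their values were seen. VND7, the master regulator of vessel formation, rose by 1.48 ± 0.29 (SE, adjusted p = 0.000646), but the value was 0.42 (adjusted p = 0.379) with slide as a fixed block, which rests on 1 control and 1 stress array of the same slide.

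Vascular markers as a list moved with the secondary wall genes, and 4 of its 10 members are among the genes just named. Of these 10 markers 8 rose and 2 fell, and their summed linear level ran from 11.9 to 17.1 times the 75th percentile on the control arrays and from 20.3 to 30.2 on the stress arrays. The phloem sucrose transporter SUC2 rose by 1.02 ± 0.15 (SE, adjusted p = 5.3e-05). The procambium regulator HB-8 and the sieve element protein SEOR1 fell by 0.45 ± 0.17 and 0.39 ± 0.16, and their calls were lost in 11 and 10 of the alternative settings. Root markers overlapped between the treatments: of 9 tested 1 was higher and 2 lower, their summed level ran from 61.7 to 70.7 in control and from 37.4 to 67.1 under stress. Their median log2 fold change was -0.10 over all arrays and 0.70 within the second scan day. Of 10 seed and embryo markers 1 was measured, and it did not pass the test. The part of a changed share of vascular tissue in these results was not tested.

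Arabinogalactan proteins (AGP) and fasciclin-like proteins (FLA) are heavily glycosylated proteins of the cell surface, many of them at growing walls. Of 32 genes 20 fell and 8 rose, with a median of -0.96. FLA9 stood at 4.88, 4.7, 4.88 and 5.04 in the control and -0.5, 0.38, 1.01 and 0.05 at low water potential, a log2 fold change of -4.64 ± 0.24 (SE, adjusted p = 2.17e-09). FLA13 fell by 4.57 ± 0.16, FLA2 by 4.02 ± 0.17 and AGP26 by 3.92 ± 0.16. The list was split, since AGP2 rose from -0.6, 0.35, 0.1 and 0.16 in the control to 4.52, 4.2, 4.22 and 3.89 at low water potential, a rise of 4.2 ± 0.19 (SE, adjusted p = 6.14e-10), and AGP19 rose by 1.76 ± 0.2.

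Microtubules guide cellulose deposition and actin filaments carry wall vesicles in growing cells. Of 20 tubulin and actin genes 17 fell and 0 rose, with a median of -1.32. Beta-tubulin TUB5 stood at 3.53, 3.56, 3.58 and 3.5 in the control and 0.4, -0.13, 0.12 and -0.18 at low water potential, a log2 fold change of -3.49 ± 0.13 (SE, adjusted p = 1.14e-10). The alpha-tubulins TUA5 and TUA3 fell by 2.64 ± 0.2 and 2.46 ± 0.14, TUB8 by 2.04 ± 0.15 and the actin gene ACT11 by 1.59 ± 0.13. Tubulin genes are close copies, so that a probe can bind more than 1 transcript and the values of single members are uncertain. Among those that did not pass the test, ACT7 was at -0.22 (95% interval -0.46 to 0.03, adjusted p = 0.105). ACT8 was at -0.08 (95% interval -0.55 to 0.39, adjusted p = 0.762) and TUA1, known from pollen, at 0.08 (95% interval -0.36 to 0.52, adjusted p = 0.75). ACT7 passed as lower in 4 of the alternative settings.

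**Figure D2:**
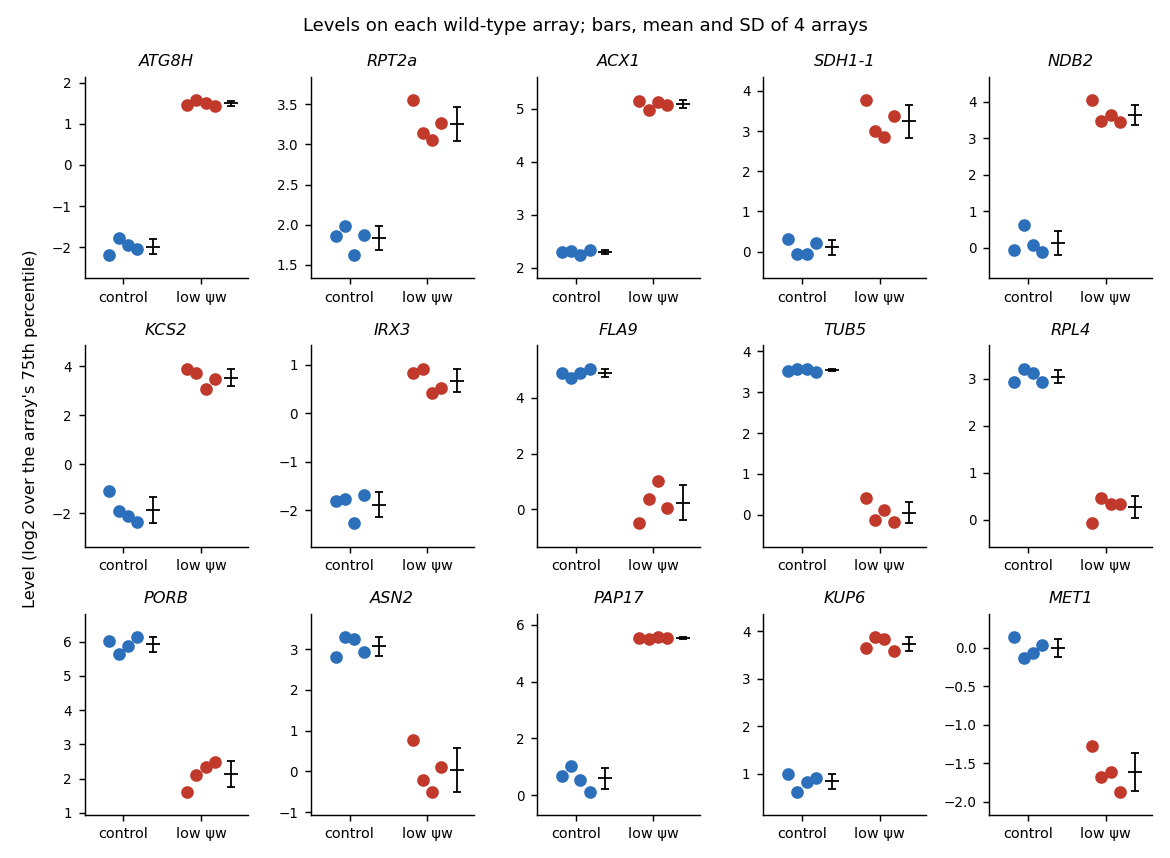
Levels of 15 genes on each wild-type array, as log2 over the array's 75th percentile, with 4 control arrays in blue, 4 low water potential arrays in red, and the mean and SD of each group in black. The scale of the vertical axis differs between panels. In all 15 panels the 2 groups of arrays do not overlap.

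SAUR genes are induced by auxin and promote cell expansion by acidifying the wall. Of 14 tested 13 fell and 1 rose, with a median of -3.75, or -2.36 with dim genes at their bound. The median was -1.76 with the normexp background correction, so its size depends on how signal near background is treated. It was -0.66 over those well above background on all wild-type arrays. That rule leaves out members that were switched off, such as SAUR19 and SAUR63, so the smaller value follows in part from the rule. The exception, SAUR36, which is linked to leaf senescence, stood at -1.26, -1.18, -1.76 and -1.59 in the control and 0.75, 1.24, 0.51 and 0.38 at low water potential, a rise of 2.17 ± 0.21 (SE, adjusted p = 9.52e-07). SAUR genes lie in arrays of close copies, and a probe for 1 of them may read its neighbours. Of 10 OFP genes, a family of transcriptional repressors of organ shape, 8 fell and 1 rose, OFP16 falling at least 5.31-fold (adjusted p = 4.11e-07) and OFP5 rising at least 3.37-fold (adjusted p = 5.17e-05). The median of the OFP genes was -1.84, or -0.95 with dim genes at their bound, and -0.56 with the normexp correction. Of 12 RTFL genes, small peptides that limit cell proliferation along organs, 8 fell and 1 rose. The median of the RTFL genes was -1.2, and -0.49 with the normexp correction. RTFL16 fell by 4.87 ± 0.2 (SE, adjusted p = 2.8e-10). RTFL5, the one that rose, was at least 1.41-fold higher (adjusted p = 0.000246) and well above background on 3 of the 4 stress arrays. Of 10 RALFL genes, peptides that alkalinise the wall and slow growth, 8 fell and 2 rose: RALFL9 fell by 3.72 ± 0.26 and RALFL32 rose by 2.31 ± 0.16. The members named from these families were chosen after their values were seen.

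Regulators of organ growth fell without exception among those called: of 18 tested 12 fell and 0 rose, with a median of -0.92, or -0.77 with dim genes at their bound. ANT, which sustains cell proliferation in young organs, stood at -1.0, -1.02, -1.1 and -0.87 in the control and -3.24, -4.07, -4.91 and -4.63 at low water potential, a log2 fold change of -3.21 ± 0.31 (SE, adjusted p = 1e-06). GRF5 and GRF3, growth-regulating factors of leaf cell proliferation, followed, GRF5 being at least 3.21-fold lower (adjusted p = 1.46e-05) and GRF3 falling by 1.9 ± 0.27. TCP15 fell by 1.93 ± 0.15 and TCP4, which ends proliferation in leaves, by 1.97 ± 0.31. Among all 14 genes with TCP symbols, which include TCP-1, a gene of another family, 7 fell and 1 rose.

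**Figure D3:**
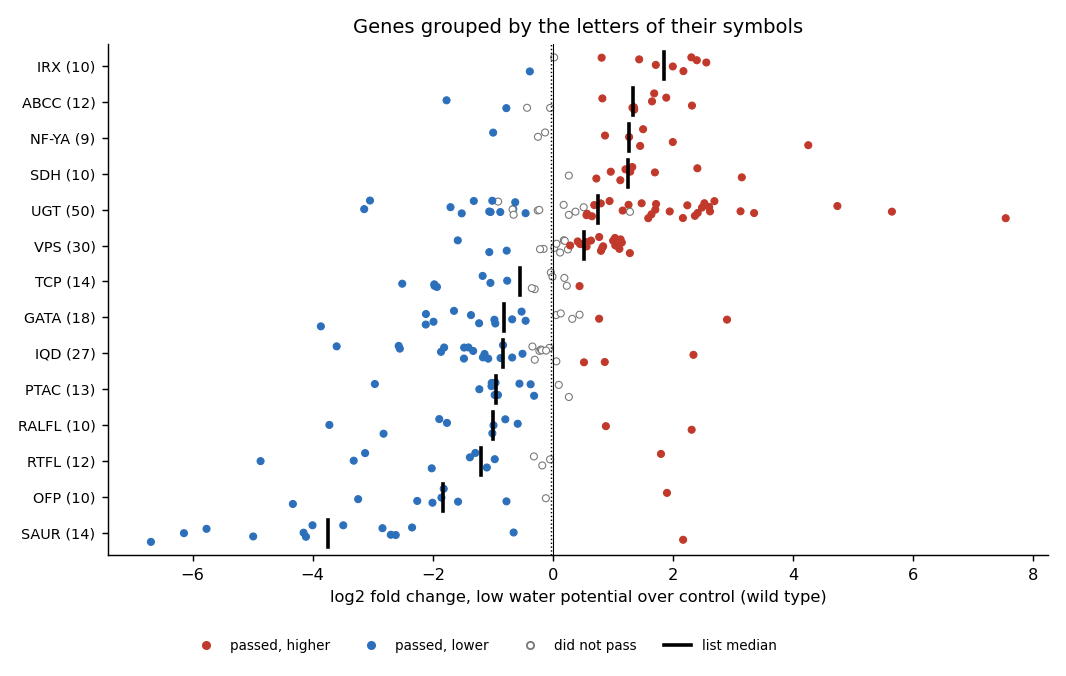
Log2 fold change of every tested gene in 14 groups formed by the letters of the gene symbol, with the number of genes in brackets. Filled red and blue points passed the test as higher and lower, open points did not pass, black bars mark group medians and the dotted line the median of all genes. Genes not well above background in 1 treatment are drawn at their fitted value, not at a bound. IRX, ABCC, NF-YA and SDH lie to the right and SAUR, OFP and RTFL to the left.

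The plastid makes its own proteins on bacterial-type ribosomes, from genes that are read with nuclear-encoded sigma factors. Of 25 genes for plastid transcription and translation 22 fell and 1 rose, with a median of -1.32. RPL4, a plastid ribosomal protein, stood at 2.92, 3.22, 3.12 and 2.93 in the control and -0.07, 0.46, 0.34 and 0.35 at low water potential, a log2 fold change of -2.78 ± 0.13 (SE, adjusted p = 9.91e-10). RPL15 and PRPL11, of the same ribosome, fell by 2.2 ± 0.12 and 1.98 ± 0.2, and RABE1b, the plastid elongation factor Tu, by 1.66 ± 0.14. The sigma factor SIGC fell by 1.98 ± 0.14, whereas SIGE stood at -0.11, -0.46, -0.86 and -1.1 in the control and 1.85, 1.78, 1.87 and 2.05 at low water potential, a rise of 2.52 ± 0.17 (SE, adjusted p = 3.73e-08). Sigma factors thus moved in both directions while the ribosomal proteins called moved in 1. Of 13 genes with PTAC symbols, proteins of the plastid transcribing chromosome, 11 fell and 0 rose, and PTAC16 had a log2 fold change of -2.97 ± 0.23, chosen after its value was seen.

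Chlorophyll is made from glutamate through tetrapyrroles and carotenoids from isoprenoids, both in the plastid. Of 31 genes of these pathways 23 fell and 4 rose, with a median of -1.28. PORB, the light-dependent reductase of protochlorophyllide, stood at 6.01, 5.65, 5.88 and 6.14 in the control and 1.62, 2.11, 2.34 and 2.49 at low water potential, a log2 fold change of -3.78 ± 0.18 (SE, adjusted p = 1.12e-09). PORA, its form in dark-grown seedlings, was switched off, at least 4.37-fold lower (adjusted p = 4.43e-10). CHLM and HEMC, further enzymes of the tetrapyrrole branch, fell by 2.9 ± 0.24 and 1.99 ± 0.3. HEMA1, the first committed enzyme, fell by 1.52 ± 0.41 (SE, adjusted p = 0.00577), but did not pass the test within either scan day alone. On the carotenoid side ZDS, a desaturase, rose by 1.66 ± 0.12 (SE, adjusted p = 6.03e-08), while PSY, the first enzyme, differed by -0.23 (95% interval -0.69 to 0.22, adjusted p = 0.346).

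Leaf mesophyll markers moved the same way: all 8 fell, and their summed linear level ran from 965.2 to 1056 on the control arrays and from 332.5 to 516.5 on the stress arrays. CA1, a plastid carbonic anhydrase, fell by 3.11 ± 0.18 (SE, adjusted p = 8.38e-09), PGLP1, of photorespiration, by 2.68 ± 0.24 and RBCS3B, a Rubisco small subunit, by 2.62 ± 0.3. Rubisco small subunit genes are close copies, so that a probe may read more than 1 of them. The part of mesophyll cell number in the falls of plastid genes was not tested.

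In light signalling 6 genes rose and 8 fell of 22, shares near those of all genes (30.7% and 33.4%). ELIP1, a chlorophyll-binding protein of strong light, stood at -0.5, -0.71, -1.0 and -1.55 in the control and 7.45, 5.5, 5.21 and 5.53 at low water potential, a rise of 6.86 ± 0.4 (SE, adjusted p = 7e-09), highest on stress replicate 1. HY5, the main factor of light-grown development, rose by 0.78 ± 0.12 (SE, adjusted p = 5.54e-05). HYH, its closest relative, fell by 2.49 ± 0.18 (SE, adjusted p = 5.55e-08) at its brighter probe, while its other probe was higher by 0.93 (adjusted p = 0.00828), so its direction depends on the probe. PIF4, which promotes elongation in shade and warmth, fell by 1.82 ± 0.2.

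The ribosomes of the cytosol translate the transcripts of the nucleus. Of 28 cytosolic ribosomal protein genes 10 fell and 1 rose, with a median of -0.31, and 0 passed 2-fold. The share lower is near the 33.4% of all genes, but the share higher is well below their 30.7%. RPL16A stood at -0.99, -0.95, -0.99 and -1.03 in the control and -1.73, -1.97, -1.53 and -2.22 at low water potential, a log2 fold change of -0.87 ± 0.16 (SE, adjusted p = 0.000378), and RACK1B_AT, a scaffold on the small subunit, fell by 0.85 ± 0.17. SAG24, a copy of ribosomal protein L10, rose by 0.58 ± 0.13 (SE, adjusted p = 0.00154). Of 24 genes of ribosome assembly and the nucleolus 9 fell and 0 rose, with a median of -0.4. The share lower is again near that of all genes and the share higher below it. The methyltransferase of ribosomal RNA precursors FIB2 stood at 1.53, 1.81, 1.88 and 1.68 in the control and 1.72, 0.7, 0.82 and 0.27 at low water potential, a log2 fold change of -0.84 ± 0.25 (SE, adjusted p = 0.00892) with its groups overlapping through stress replicate 1. PUM24, an RNA-binding protein of the nucleolus, fell by 0.8 ± 0.13, and nucleolin NUC-L1 differed by -0.22 (95% interval -0.66 to 0.22, adjusted p = 0.365). These counts depended on stress replicate 1. Without it 17 ribosomal protein genes and 18 assembly genes were lower, and NUC-L1 was called at -0.48 (adjusted p = 0.000769). Scaling to the array median left 4 lower in each list.

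Nitrogen enters as nitrate or ammonium and is built into glutamine and asparagine. Of 25 genes of this route 15 fell and 4 rose, with a median of -0.82. Asparagine synthetase ASN2 stood at 2.82, 3.29, 3.24 and 2.93 in the control and 0.76, -0.21, -0.49 and 0.12 at low water potential, a log2 fold change of -3.02 ± 0.22 (SE, adjusted p = 5.69e-08). The ammonium transporters AMT1;2 and AMT1;1 fell by 2.79 ± 0.19 and 2.29 ± 0.18, nitrate reductase NIA1 by 2.02 ± 0.14 and plastid glutamine synthetase GS2 by 1.08 ± 0.13. LBD38, a repressor of nitrogen genes, fell by 2.65 ± 0.27. The rises included transporters and a second form of glutamine synthetase. NRT1.8, which retrieves nitrate from xylem sap, was switched on, at least 2.71-fold higher (adjusted p = 2.34e-07). NRT1.7, which loads nitrate into the phloem, rose by 1.55 ± 0.15 (SE, adjusted p = 7.35e-07). Cytosolic glutamine synthetase GLN1.3 rose from 0.02, -0.03, -0.19 and -0.13 to 2.42, 1.59, 1.83 and 1.88, a rise of 2.01 ± 0.16 beside the fall of the plastid form.

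Among 17 genes of sulfate uptake, assimilation and glutathione synthesis 7 fell and 3 rose, the falls led by the transporter SULTR2;1 at -1.88 ± 0.15 (SE, adjusted p = 1.96e-07) and the kinase AKN2 at -1.61 ± 0.25. The median of these sulfate and glutathione genes was -0.34 over all arrays. It was 0.17 within the second scan day, where control replicate 1 is the only control. Phosphate starvation genes had no common direction, with 5 higher and 6 lower of 17, shares near those of all genes. The acid phosphatase PAP17 stood at 0.68, 1.02, 0.54 and 0.13 in the control and 5.52, 5.5, 5.57 and 5.52 at low water potential, a rise of 4.94 ± 0.17 (SE, adjusted p = 5.6e-11). PS2, a phosphatase induced by phosphate starvation, rose by 3.43 ± 0.28 (SE, adjusted p = 1.81e-07), and the phospholipase NPC4 was switched on, at least 2.86-fold higher (adjusted p = 6.8e-05). The lipid remodelling enzymes SQD2 and MGD2, which phosphate starvation also induces, fell by 1.42 ± 0.17 and 1.39 ± 0.11. The transporter PHT1;1 differed by -0.01 (95% interval -0.48 to 0.47, adjusted p = 0.987), an interval that holds no change beyond 0.5 in either direction.

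Of 28 genes for ion transport and osmosensing 12 rose and 8 fell, where 30.7% of all genes rose and 33.4% fell. Their median was 0.23. It was 0.06 without the filter on dim probes and 0.43 over those well above background on all wild-type arrays. CAX3, a vacuolar exchanger of calcium for protons, stood at -1.07, -0.5, -0.92 and -1.32 in the control and 3.69, 3.64, 3.32 and 3.4 at low water potential, a rise of 4.46 ± 0.19 (SE, adjusted p = 4.83e-10). KUP6, a potassium transporter, rose from 1.0, 0.63, 0.83 and 0.92 to 3.64, 3.88, 3.84 and 3.59, by 2.89 ± 0.12. NHX2 and NHX1, which load potassium and sodium into the vacuole, rose by 2.28 ± 0.17 and 1.68 ± 0.11, the plasma membrane proton pump HA3 by 1.91 ± 0.19 and the outward potassium channel GORK by 1.91 ± 0.16. The falls included HKT1, a sodium transporter, at least 1.68-fold lower (adjusted p = 6.22e-06), and the vacuolar potassium channel KCO1, at -1.29 ± 0.14. AT4G04340, listed as osca1, a calcium channel of osmotic sensing, fell by 1.23 ± 0.14 (SE, adjusted p = 5.35e-06). The sodium exporter SOS1 differed by 0.37 (95% interval -0.17 to 0.91, adjusted p = 0.207), but was called higher in 3 of the alternative settings.

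Calcium signals act through CBL sensors and CIPK kinases, and osmotic signals also through MAP kinase cascades. Of 39 such genes 19 rose and 7 fell, with a median of 0.39. MAPKKK18, a kinase of abscisic acid signalling, was switched on, at least 18.3-fold higher (adjusted p = 7.78e-09), and MAPKKK19 rose by 3.49 ± 0.17 (SE, adjusted p = 1.53e-09). CIPK5 stood at -0.21, -0.65, -1.11 and -1.28 in the control and 2.91, 3.66, 3.21 and 3.44 at low water potential, a rise of 4.12 ± 0.23 (SE, adjusted p = 3.96e-09), and CIPK25 rose by 4.02 ± 0.41. CBL10, a sensor of salt tolerance, fell from 0.93, 0.36, 0.51 and 0.75 to -3.18, -2.49, -1.99 and -2.61, by 3.21 ± 0.24 (SE, adjusted p = 8.22e-08), and CIPK20 fell by 3.06 ± 0.36. MPK3, a kinase of defence and stress, fell by 1.71 ± 0.52 (SE, adjusted p = 0.0108), but its value was -0.21 (adjusted p = 0.813) within the second scan day, and control replicate 1 lay apart from its group.

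Ethylene is made from S-adenosylmethionine by ACS and then ACO enzymes. Of 23 genes of its synthesis and signalling 9 fell and 4 rose, where 33.4% of all genes fell and 30.7% rose. The median of these ethylene genes was 0.05. It was 0.21 with scaling to the array median and -0.14 within the second scan day. ACS2 was switched on, at least 50.8-fold higher (adjusted p = 6.13e-10), and ACS7 rose by 2.32 ± 0.36, whereas ACS11 was switched off, at least 7.89-fold lower (adjusted p = 7.25e-07). The ACO step moved 1 way, EFE falling by 2.16 ± 0.11 (SE, adjusted p = 2.43e-09) and ACO1 by 1.71 ± 0.17. The receptor ETR2 fell by 1.38 ± 0.26. Polyamines are made from arginine by ADC enzymes and removed by amine oxidases. Of 19 polyamine and GABA genes 9 rose and 6 fell. ADC2 stood at 3.65, 3.91, 3.6 and 3.71 in the control and 6.55, 6.58, 6.47 and 5.88 at low water potential, a rise of 2.65 ± 0.16 (SE, adjusted p = 1.34e-08), SPDS3, of the spermidine synthase family, rose by 2.51 ± 0.14 and the copper amine oxidase CuAO1 by 3.33 ± 0.14. POP2, which degrades GABA, rose by 2.08 ± 0.2, while GAD2, which makes it, fell by 1.06 ± 0.14.

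Glutathione transferases and glycosyltransferases conjugate small molecules for storage or detoxification, and ABCC transporters move the products to the vacuole. Of 31 glutathione transferases 14 rose and 9 fell, GSTU9 by 4.27 ± 0.34 (SE, adjusted p = 1.59e-07), GSTU22 by 2.71 ± 0.41 and ERD9 by 2.22 ± 0.2. GSTU4 rose by 5.32 ± 0.86 (SE, adjusted p = 0.000112), though its control arrays were spread over -6.24, -4.15, -6.4 and -1.1. In the other direction GSTU20, linked to glucosinolate synthesis, fell by 4.98 ± 0.23 (SE, adjusted p = 9.81e-10) and GSTF14 was switched off, at least 7.55-fold lower (adjusted p = 7.82e-08). Some of these genes lie in tandem copies whose probes may overlap. Of 50 UGT genes 28 rose and 12 fell, with a median of 0.74, and UGT76E12 and UGT73C1 were switched on, at least 65-fold higher (adjusted p = 1.32e-11) and at least 22.3-fold (adjusted p = 2.33e-07). Of 12 ABCC genes 8 rose and 2 fell, with a median of 1.34. Both UGT genes were chosen after their values were seen.

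WRKY factors, which regulate defence and senescence, were divided. Of 21 on the list 6 were higher and 7 lower, shares near those of all genes. The list is a part of the family: among all 45 genes with WRKY symbols 17 rose and 14 fell, with a median of 0.04. WRKY75, known from senescence and phosphate starvation, rose by 2.34 ± 0.25 (SE, adjusted p = 2.28e-06), and WRKY57, WRKY6 and WRKY60 by 1.89 ± 0.19, 1.43 ± 0.15 and 1.33 ± 0.15. WRKY22 fell by 2.71 ± 0.46 (SE, adjusted p = 0.000178). Within the second scan day its value was -1.35 (adjusted p = 0.0985). WRKY53 was called lower at -1.95 ± 0.8 (SE, adjusted p = 0.0464), a call lost under most alternatives, scaling to the array median among them. It stood at -2.95, 0.38, 0.86 and 0.25 in the control and -4.14, -2.2, -1.03 and -1.87 at low water potential. Its value was 0.60 (adjusted p = 0.645) within the second scan day, and the median of the list turned from -0.43 to 0.90 there. Cysteine-rich receptor-like kinases are membrane receptors of defence. Of 7 measured 5 fell and 0 rose, CRK21 being switched off, at least 11.9-fold lower (adjusted p = 1.23e-10) and CRK19 falling by 2.92 ± 0.23 (SE, adjusted p = 1.32e-07). These kinases lie in a tandem array of similar genes, and 7 of the 14 with a probe passed the filter. The median of the 7 was -2.49 over all arrays, or -1.39 with dim genes at their bound. It was -0.22 within the second scan day, where control replicate 1 is the only control. Among all 20 genes with CRK symbols, which include kinases of another family, 14 fell and 2 rose.

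NF-YA proteins are the DNA-binding subunits of a trimeric factor at CCAAT boxes. Of 9 genes 6 rose and 1 fell, with a median of 1.27. NF-YA5, known from drought tolerance, stood at -3.4, -3.52, -3.04 and -3.7 in the control and 1.11, 1.05, 0.46 and 0.73 at low water potential, a rise of 4.25 ± 0.17 (SE, adjusted p = 1.89e-10), and NF-YA7 rose by 2.0 ± 0.12, whereas NF-YA6 fell by 1.0 ± 0.12 (SE, adjusted p = 5.43e-06). Of 18 GATA factors 12 fell and 2 rose, GATA6 being switched off, at least 6.6-fold lower (adjusted p = 7.85e-10). Of 27 IQD genes, calmodulin-binding proteins at microtubules, 16 fell and 3 rose. The members named here were chosen after their values were seen.

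Histones package DNA, and most of their transcripts are made when DNA is replicated. Of 29 histone genes 16 fell and 5 rose, with a median of -0.76, which was -1.05 within the first scan day and -0.31 within the second. AT5G10390, a histone H3.1 gene, stood at 1.26, 1.63, 1.63 and 1.74 in the control and 0.31, -0.52, -0.17 and -0.36 at low water potential, a log2 fold change of -1.75 ± 0.17 (SE, adjusted p = 8.72e-07). HTR12, the histone H3 of centromeres, fell by 1.92 ± 0.27 (SE, adjusted p = 3.82e-05). HIS1-3, a linker histone known to be induced by drought, rose from -0.9, -0.06, -0.36 and -0.43 to 2.11, 3.21, 3.1 and 2.69, by 3.21 ± 0.33 (SE, adjusted p = 1.51e-06). Within the H2A.W variants, which mark heterochromatin, HTA12 and HTA7 rose by 1.78 ± 0.14 and 1.15 ± 0.14 while HTA6 fell by 1.55 ± 0.2. Of 23 genes for DNA methylation and RNA silencing 12 fell and 5 rose, 5 of the falls and none of the rises being at least 2-fold. MET1, which copies CG methylation at replication, stood at 0.14, -0.13, -0.06 and 0.04 in the control and -1.27, -1.68, -1.61 and -1.87 at low water potential, a log2 fold change of -1.61 ± 0.13 (SE, adjusted p = 1.36e-07). RDR6, of small RNA synthesis, fell by 1.47 ± 0.18, the histone methyltransferase SUVH4 by 1.33 ± 0.14 and the remodeller CHR1, also known as DDM1, by 1.17 ± 0.2.

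**Figure D4:**
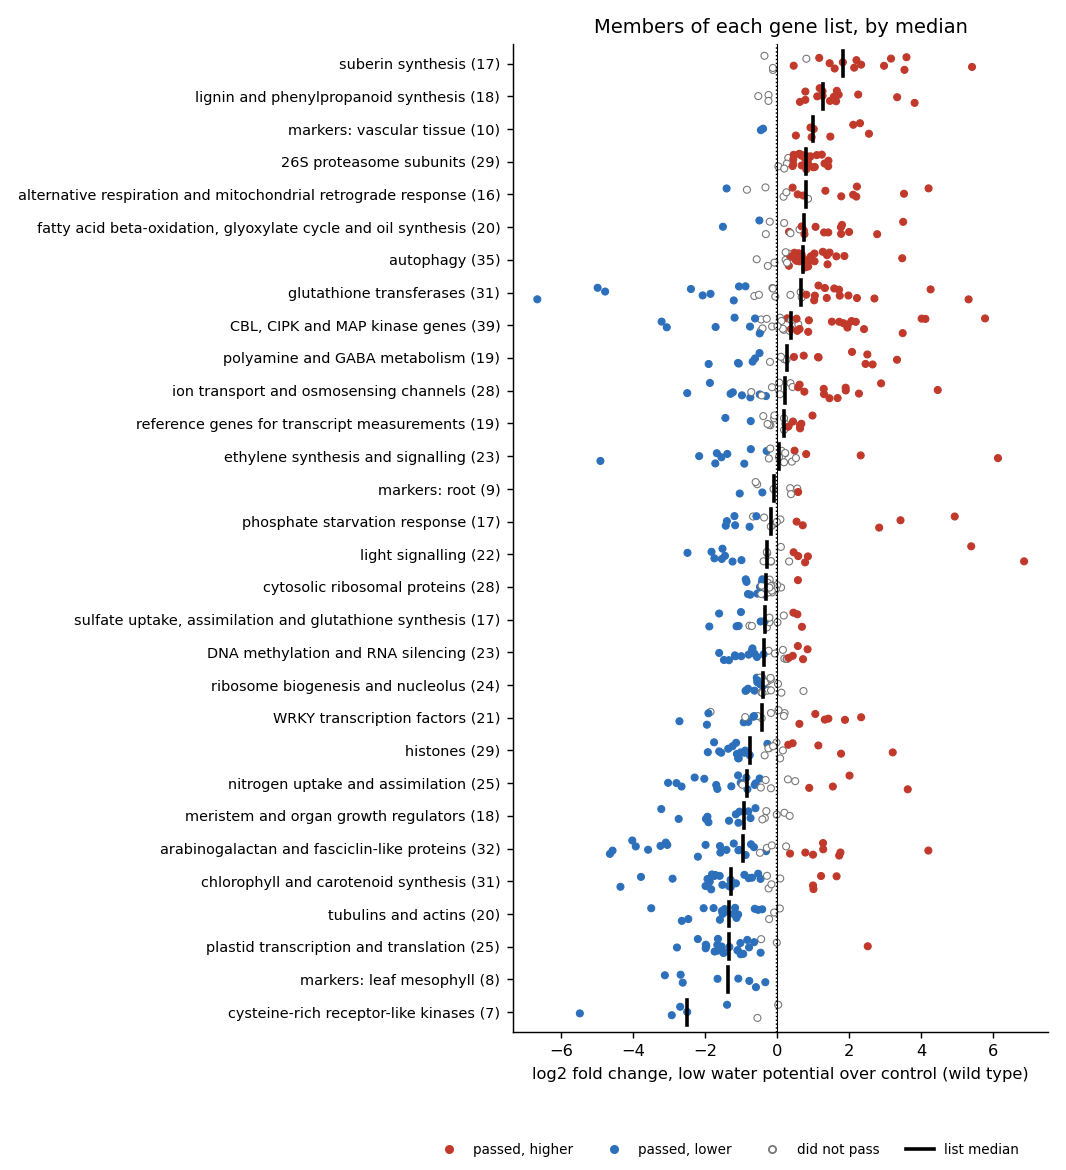
Log2 fold change of every tested member of the gene lists with at least 5 tested members, ordered by the list median, with the number tested in brackets. Filled red and blue points passed the test as higher and lower, open points did not pass, black bars mark medians and the dotted line the median of all genes. Genes not well above background in 1 treatment are drawn at their fitted value, not at a bound. The suberin list has the highest median and the cysteine-rich receptor-like kinases the lowest.

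Reference genes, which are used to scale other transcript measurements because their levels are steady, were not all steady here. Of 19 measured 7 rose, 2 fell and 10 did not pass the test. The largest difference was in TUA4, an alpha-tubulin, at -1.43 ± 0.16 (SE, adjusted p = 4.42e-06). AT2G28390, listed as MON1, stood at -0.57, -1.05, -0.81 and -0.89 in the control and 0.28, 0.19, 0.23 and -0.07 at low water potential, a rise of 0.98 ± 0.12 (SE, adjusted p = 8.97e-06) with no overlap. Smaller rises were called for GAPC1 (0.68), CYP5 (0.64), AT4G34270 (0.64), UBQ11 (0.44), PP2AA3 (0.32) and PEX4 (0.31), and AT4G33380 was lower at -0.73. Of these the calls of PP2AA3 and PEX4 were lost under most alternatives, PP2AA3 having an adjusted p of 0.0373 and PEX4 of 0.0331. GAPC1 lost its call in 4 alternatives, with a value of 0.32 (adjusted p = 0.17) as the mean of its probes, and UBQ11 in 3, with a value of 0.25 (adjusted p = 0.111) under the normexp correction. With slide as a fixed block the calls of AT4G34270 and AT4G33380 were also lost, at 0.56 and -0.44. AT4G34270 lost its call within the second scan day too, at 0.59. YLS8 was at -0.07 (95% interval -0.33 to 0.18, adjusted p = 0.61), the interval that reached least far from no change among the 10. UBQ5 was at -0.18 (95% interval -0.48 to 0.12, adjusted p = 0.266) and UBC9 at 0.23 (95% interval -0.09 to 0.55, adjusted p = 0.191). UBQ10 was at 0.25 (95% interval -0.06 to 0.57, adjusted p = 0.145) and AT5G46630, listed as AP2M, at 0.2 (95% interval 0.01 to 0.38, adjusted p = 0.0596). The remaining members were AT4G26410 at 0.2 (95% interval -0.18 to 0.57, adjusted p = 0.347), AT5G60390 at -0.26 (95% interval -0.64 to 0.11, adjusted p = 0.198) and GAPC2 at -0.38 (95% interval -0.74 to -0.02, adjusted p = 0.0626), besides ACT7 and ACT8 above. Of these 10, YLS8, UBQ5 and AT4G26410 passed in none of the alternatives and the other 7 in at least 1. GAPC2 was called lower in 4, at -0.76 (adjusted p = 0.000248) as the mean of its probes. AT5G60390 was called lower without stress replicate 1, at -0.47 (adjusted p = 0.0025), UBC9 higher without control replicate 3, at 0.38 (adjusted p = 0.0199), and ACT8 lower with the normexp correction, at -0.63 (adjusted p = 0.00303). UBQ10 and AT5G46630 were called higher in 3 and 2 settings, scaling to the array median among them.

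Among genes with a symbol that were well above background on all 8 arrays, the 5 with the largest SD in each treatment had replicate 1 as the lowest array of that treatment. WRKY40, a repressor in defence and abscisic acid signalling, stood at -1.02, 3.7, 3.87 and 3.51 in the control and -1.11, 2.68, 3.96 and 2.82 at low water potential. DIC2, a dicarboxylate carrier of mitochondria, stood at -1.45, 3.01, 3.11 and 3.15 in the control and -3.54, 1.5, 3.17 and 1.97 at low water potential, and NUDT4, a nucleotide hydrolase, at -1.63, 1.9, 1.79 and 1.32 in the control and -3.6, 1.61, 3.2 and 2.07 at low water potential. In each of the 3 genes replicate 1 was the lowest of its group by several log2 units in both treatments, and no difference passed the test. CYP707A3, an enzyme that degrades abscisic acid, stood at -2.12, 2.72, 2.93 and 2.31 in the control and -1.07, 1.73, 2.02 and 1.02 at low water potential, a difference of -0.54 (95% interval -2.65 to 1.57, adjusted p = 0.65). Within the second scan day, which sets control replicate 1 against stress replicates 1, 3 and 4, the same gene was higher by 2.78 (adjusted p = 0.0273), and without replicate 1 of both groups it was lower, at -1.07 (adjusted p = 0.0243). ERF11, an ethylene response factor, was at 0.78 (95% interval -1.05 to 2.6, adjusted p = 0.44) over all arrays and at 3.79 (adjusted p = 0.00292) within the second scan day. The direction of CYP707A3 and the size of the ERF11 difference therefore depended on which arrays were compared.

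The other genes of wide spread were BCS1, an AAA-type ATPase of mitochondria, at -0.83 (95% interval -2.93 to 1.26, adjusted p = 0.468), and HSPRO2, a defence-related protein, at -1.41 (95% interval -3.48 to 0.66, adjusted p = 0.213). BCS1 and HSPRO2 were called lower without replicate 1 of both groups, at -1.09 and -0.55. SEN1, induced by darkness and senescence, stood at 2.64, 3.5, 3.8 and 3.94 in the control and -3.18, 1.95, 2.48 and 1.78 at low water potential, a log2 fold change of -2.71 ± 0.94 (SE, adjusted p = 0.0214), and BT5, a BTB and TAZ domain protein, at 2.63, 3.56, 3.57 and 3.4 in the control and -3.72, 1.46, 2.46 and 0.92 at low water potential, a log2 fold change of -3.01 ± 0.96 (SE, adjusted p = 0.0141). All 4 stress arrays of SEN1 and BT5 lay below every control array, with the distance set largely by stress replicate 1, and neither was called within a single scan day. In the control, slide, scan day and replicate number move together for replicate 1. At low water potential slide and replicate number do, while replicates 3 and 4 shared the second scan day with replicate 1. The part of each in these values was not tested.

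**Figure D5:**
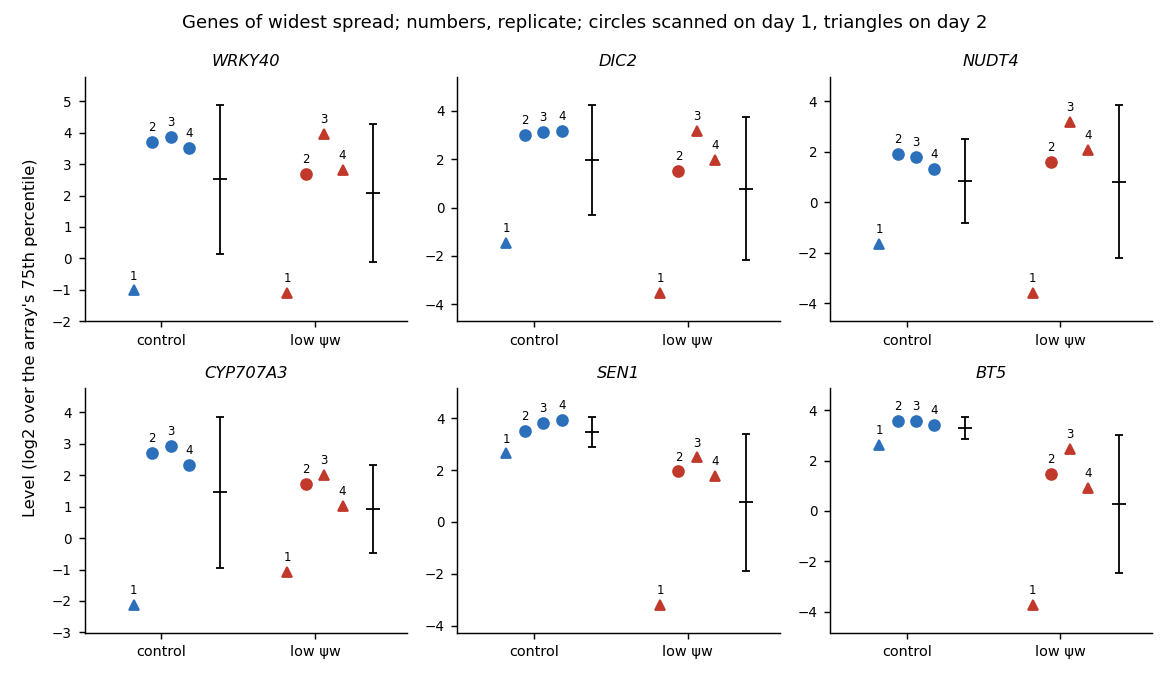
Levels of 6 of the genes of widest spread among those well above background on all 8 arrays, on each wild-type array, as log2 over the array's 75th percentile, with controls in blue, low water potential in red, and the mean and SD of 4 arrays in black. Numbers give the replicate, circles the arrays scanned on the first scan day and triangles those on the second. In every panel replicate 1 is the lowest array of its group.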

How the data were processed

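Total RNA was labelled with a fluorescent dye by the authors, per the labels' protocols, and hybridised to 1-colour Agilent arrays of 45220 spots. The deposited intensity of each spot was read by Agilent Feature Extraction 10.7.1.1, per the file headers and the submitters' processing notes, as processed signals with the background already subtracted and no normalization between arrays. The deposited table of all samples held the same intensity values. Per the file headers the array design carries an older genome build label, so no coordinates were used.

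Here, each processed signal was divided by the 75th percentile of its array over 43803 spots other than controls and taken to log2, spots of a probe were averaged without outlier spots, and a probe was kept where 3 or more arrays of a group showed it well above background. The probe brightest on average over the 14 arrays stood for a gene, named through RefSeq accessions of the TAIR10.1 gene table. These accessions matched 34358 of 43603 probes. Several probes were kept for 5670 genes, and for 41 of these they gave calls of opposite sign. The test was that of limma 3.58.1 (R 4.3.3), from 1 model of the 4 groups over the 14 arrays, which leaves 10 residual degrees of freedom, with Benjamini-Hochberg adjustment, and the procedure was tested on simulated data. The labelled genotypes and treatments set the groups. Deviations of same-numbered control and stress arrays from their group means correlated at 0.397, -0.007, 0.193 and -0.117 for replicates 1 to 4, so the numbers were not treated as pairs.

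Gene lists and members were chosen with earlier results of these data known. The genes named are the 10 highest and 10 lowest called with no overlap, up to 4 called in each direction of a list, all measured reference genes, the 5 switched on and 5 switched off by the highest bound, and the 5 of largest SD in each group among genes well above background on all 8 arrays. Others, named for their role or for not moving with their list, were chosen after their values were seen. The alternatives tried are another background correction (normexp with offset 50, on spot medians, since the files used here carry no spot means), scaling, filters, probe rules, scan day, slide and replicate blocks, the deposited table of all samples, and leaving out arrays. The number of arrays limits the precision.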

Additional observations from a re-analysis of the deposited data

Results flagged for a closer look

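For the 239 genes named, 478 groups of 4 arrays were looked at, and in 38 of them 1 array lay apart from the other 3 by Dixon's test at the 95% level, where chance gives about 1 in 20. The genes named for the largest SD in a group hold 8 of the 38, so the count cannot be read against that rate. Replicate 1 was the array apart in 29 of these. All values here are levels, as log2 over the array's 75th percentile. Control replicate 1 lay lower than the other 3 arrays of its group for MPK3 (0.33), HTR12 (-3.07), ACS7 (-5.30), WRKY22 (-0.35), WRKY53 (-2.95) and CYP707A3 (-2.12). Control replicate 1 lay lower than each of the other 3 arrays of its group also for WRKY40 (-1.02), DIC2 (-1.45), BCS1 (-2.77), ERF11 (-2.14) and NUDT4 (-1.63). Control replicate 1 lay higher than the other 3 arrays of its group for CSLG2 (-3.90) and IRX12 (0.95). Stress replicate 1 lay lower than the other 3 arrays of its group for ATG8E (0.80), AOX2 (-4.50), TUA1 (-3.20), CHLM (0.26), HEMA1 (-0.48) and ACS2 (0.86). Stress replicate 1 lay lower than each of the other 3 arrays of its group also for RBCS3B (3.70), SEN1 (-3.18), HSPRO2 (-1.82) and PnsL3 (-5.15). Stress replicate 1 lay higher than the other 3 arrays of its group for NAC13 (0.64), HB-8 (1.48), ELIP1 (7.45), NUC-L1 (2.73), GSTU22 (0.70) and AT5G60390 (6.28). Other arrays apart from their group were stress replicate 4 for LTP3 (6.19), stress replicate 3 for SAUR63 (-5.05), stress replicate 2 for AT5G23540 (3.18) and control replicate 3 for GPAT5 (-4.44). Other arrays apart from their group were control replicate 2 for IRX9 (-3.44), stress replicate 2 for OFP16 (-5.64), stress replicate 4 for RALFL32 (2.31) and control replicate 3 for ZDS (2.40). Other arrays apart from their group were stress replicate 4 for ADC2 (5.88). Replicate 1 of both treatments shared slides with the 35S:YFP-AFL1 arrays and the second scan day, and the part of slide and day in these values was not tested.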

How the results depend on the processing

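The counts of genes higher and lower, in all and at 2-fold or more, stayed within 1.5 times the value reported under all 23 alternatives run. With the replicate number as a block (replicate block) 5542 genes were higher and 6048 lower. Of 11737 calls, 8553 stayed called in the same direction within the first scan day, 7762 within the second and 8173 with slide as a fixed block, comparisons that rest on fewer arrays, and 11721, 11645 and 11666 had the same sign there. The deposited table of all samples gave the same 5627 and 6110. Requiring signal well above background on all wild-type arrays left 0 genes switched on and 0 switched off, which follows from the rule. Genes whose interval lay within 0.5 of no change, 2392 with all arrays, numbered 480 and 497 within the first and second scan day and 373 with slide as a fixed block, where fewer arrays widen the interval. Of the called genes named, WRKY53 reversed, at 0.60 within the second scan day, and the cause was not tested. Medians of gene groups moved by over 1.5 times in some settings besides those given above. With the normexp correction the organ growth regulators had a median of -0.46 and the suberin genes of 1.17. Within the second scan day the calcium and MAP kinase genes had a median of 0.73 and the mitochondrial bypass genes of 1.27. With slide as a fixed block it was 1.16 for fatty acid breakdown and -0.64 for cytosolic ribosomal proteins. A planned count of promoter motifs was not run, since no promoter sequences were used here. Genes near background have differences that depend on the background correction, and the 4 arrays a group limit the precision of every fold.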
